A study of Mus musculus with 2 samples.

Results

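Smad2/3 occupancy was examined at 4 loci of Krüppel-like factor (KLF) genes, Klf4, Klf5, Klf6 and Klf10, in NMuMG, a line of mouse mammary epithelial cells. Members were chosen by their deposited positions, as the regions of the Smad2/3 list whose centre lay in 1 of 4 windows of the mm9 genome, each given for 1 gene. There were 17 such regions of 5847 in all, 6 in the Klf4 window, 1 in the Klf5 window, 8 in the Klf6 window and 2 in the Klf10 window. The windows were chosen with earlier results of this list known, so the number of regions in them is a description and carries no test.

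The list came from 1 chromatin immunoprecipitation sequencing (ChIP-seq) library, made with an antibody that recognises both Smad2 and Smad3, so the proteins cannot be told apart. Before the precipitation the cells were exposed for 1.5 h to 1 ng/ml TGF-beta3 with 10% serum present, and their growth medium held insulin at 10 ug/ml. A second sample, the input DNA of cells treated in the same way, entered no value here. Neither untreated cells nor a replicate entered the values, so the list shows occupancy after treatment and no change. The cell type could not be checked against markers, as no expression was measured. Sequencing depth and the reads behind each region are unknown.

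TGF-beta receptors phosphorylate Smad2 and Smad3, which join Smad4, enter the nucleus and act on DNA together with other transcription factors. KLF proteins are zinc-finger transcription factors that bind GC-rich and CACCC-type sequences. Klf4 is a regulator of epithelial differentiation and 1 of the factors used to reprogram cells to pluripotency. Klf5 is a regulator of epithelial growth, Klf6 is a broadly expressed early-response gene studied as a tumour suppressor, and Klf10 was first described as a TGF-beta-inducible early gene (Tieg1).

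The windows ran from 55.44 to 55.65 Mb of chromosome 4 for Klf4, from 99.59 to 99.82 Mb of chromosome 14 for Klf5, from 5.76 to 5.98 Mb of chromosome 13 for Klf6 and from 38.12 to 38.33 Mb of chromosome 15 for Klf10. Their lengths were 210, 230, 220 and 210 kb. Each window is named by its gene below, but no mm9 annotation was used. Whether a region lay in a promoter, exon, intron or intergenic stretch, and its distance from the gene, are therefore not given. In the gene order of GRCm38.p6, the nearest protein-coding genes on either side were Rad23b and Actl7b for Klf4, Pibf1 and Klf12 for Klf5, Akr1e1 and Pitrm1 for Klf6, and Odf1 and Azin1 for Klf10. Rad23b takes part in DNA repair, Klf12 is another KLF gene, and Azin1 regulates polyamine synthesis. A region in a window may belong to a neighbour, and whether these genes reach into the windows was not determined.

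Promoter sequences of Klf4 and Klf6, the genes whose windows held the most regions, are shown because Smad and KLF proteins both recognise short motifs. They come from RefSeq on GRCm38.p6, where 2 of the 4 genes matched, and cover the 250 bases before the annotated start. Their coordinates belong to that build and were not set against the mm9 regions, so no region is placed on them. Capitals mark GGCGC on either strand, a GC-rich type of Smad-binding motif. The Klf4 stretch is chr4:55532476-55532725 on the minus strand, and the Klf6 stretch is chr13:5861239-5861488 on the plus strand.
Klf4: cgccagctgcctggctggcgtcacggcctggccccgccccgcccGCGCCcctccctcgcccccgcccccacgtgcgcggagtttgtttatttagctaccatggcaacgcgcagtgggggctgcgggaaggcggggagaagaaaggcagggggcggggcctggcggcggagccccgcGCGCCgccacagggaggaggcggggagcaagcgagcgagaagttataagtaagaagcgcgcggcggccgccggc
Klf6: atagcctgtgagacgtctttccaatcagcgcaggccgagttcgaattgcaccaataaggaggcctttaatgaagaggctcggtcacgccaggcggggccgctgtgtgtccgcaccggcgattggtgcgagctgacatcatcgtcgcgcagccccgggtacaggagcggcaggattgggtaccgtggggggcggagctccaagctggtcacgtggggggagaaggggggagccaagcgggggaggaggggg

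The Klf4 stretch held 2 matches to GGCGC, both on the opposite strand and so printed as GCGCC, and the Klf6 stretch held 0. This motif occurred in 32% of the 32851 promoter stretches of the table. The classical Smad-binding letters CAGAC, searched on both strands, gave 0 matches in each of these promoters, against 42.2% of all promoters with at least 1. The palindrome GTCTAGAC, which contains GTCT and AGAC, was likewise at 0 in both, and 0.167% of all promoters held it. TGAGTCA, an AP-1 type site whose opposite strand reads TGACTCA, was at 0 in both and occurred in 4.46% of promoters. CACCC, a KLF-type motif, was at 0 in both and occurred in 52% of promoters. The GC content was 74% in the Klf4 stretch and 64.8% in the Klf6 stretch, against a median of 52.4% over all. These counts say only which letters stand in these 250 bases.

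Klf6 had the most Smad2/3 regions of the 4 loci. Its 8 regions spread over 110 kb, with 4 on either side of the window's midpoint. Over the whole window of 220 kb this was 36.4 regions per Mb, against 3.08 per Mb on chromosome 13 and 2.31 per Mb over all chromosome spans. To set the background, the span between the first and last region of every chromosome was divided into end-to-end windows of 220 kb. Of these 11495 windows, 26.1% held at least 1 region and 0.235% (27 windows) held at least 8. On chromosome 13 alone, 3 of 529 windows held at least 8.

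Widths at Klf6 ran from 199 to 899 bp. In order of position on chromosome 13 of mm9, the first region lay at 5802901 to 5803799, was 899 bp wide and had the number 2111 in the list. After 33.5 kb between centres came a region of 499 bp at 5836601 to 5837099 (number 1458), followed 7.75 kb on by a region of 699 bp at 5844251 to 5844949 (number 2963). These first 3 regions were all at or above the list's median width of 349 bp, as were 55.2% of all regions.

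The middle of the Klf6 window held narrower regions. Regions of 249 bp each lay at 5860701 to 5860949 (number 5428) and at 5870701 to 5870949 (number 2761), with centres 10 kb apart. Of the 885 regions of exactly this width in the list, the first was the 798th by list number and the second the 209th. So these regions of equal width stood far apart in the list's order.

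The Klf6 region that came earliest in the list lay at 5891951 to 5892799 and was number 9 of 5847. It was 849 bp wide, a width reached by 4.14% of all regions, and was the 3rd by list number of the 41 regions of that width. It was the only one of the 17 KLF regions among the first 584 of the list, beside 583 of the other 5830 regions. A region of 349 bp at 5886051 to 5886399 (number 1538) preceded it by 6.15 kb, the closest spacing at this locus. The last region, at 5912451 to 5912649, was 199 bp wide and number 4603.

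Consecutive Klf6 centres were 6.15 to 33.5 kb apart. The median distance was 15.4 kb over 7 steps, against 96.5 kb between neighbours over the whole list. Steps between 8 regions inside a window of 220 kb are short by construction, so this contrast only restates the count. The region before the first Klf6 member lay 268 kb from it, and the region after the last lay 96.5 kb from it. Of the 8 regions, 6 had a neighbour within 12500 bp, but they formed 3 separate pairs, and 0 of the 8 belonged to a run of at least 3 regions with steps up to 12500 bp. With steps of up to 50 kb all 8 formed a single run, and the list held 23 runs of at least 8 regions by that definition among 3524 runs and lone regions.

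**Figure D1:**
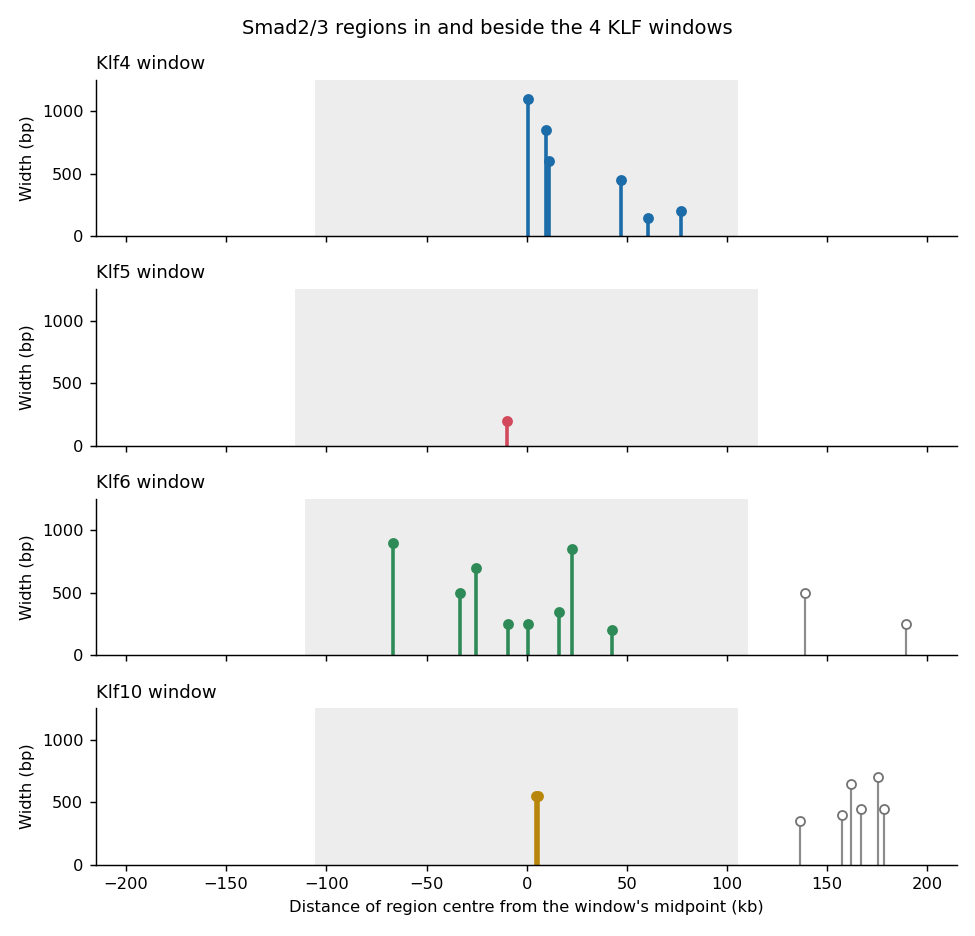
Smad2/3 regions in the 4 KLF windows (grey bands) and up to 100 kb beyond, with the distance of each region's centre from the window's midpoint in kb on the horizontal axis and its width in bp on the vertical axis. Filled points are the 17 members and open points the 8 regions just outside. All 6 Klf4 regions lie above the midpoint, the 8 Klf6 regions lie on both sides of it, and 6 open points stand beyond the Klf10 window.

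Klf4 followed with 6 regions, all on 1 side of the window's midpoint, between 0.8 and 77.1 kb above it. They spanned 77 kb, and the window's density was 28.6 regions per Mb, 13.2 times the 2.16 per Mb of chromosome 4. Of 12045 end-to-end windows of 210 kb, 25.2% held at least 1 region and 0.756% (91 windows) held at least 6. On chromosome 4 the windows with at least 6 regions were 5 of 719.

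Width declined along the Klf4 locus from the midpoint outwards, apart from the last step. The first region, at chromosome 4 position 55545251 to 55546349, measured 1099 bp and was the widest of all 17, and 1.21% of the list (71 regions) was at least as wide. Next came a pair with centres 1.27 kb and edges 551 bp apart. Its members lay at 55554201 to 55555049 and at 55555601 to 55556199 and measured 849 and 599 bp. With the first region, 8.82 kb away, this pair formed the only run of at least 3 regions, with steps up to 12500 bp, in any of the 4 windows. Of the whole list, 13.9% of regions belonged to such runs.

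The other Klf4 regions lay farther out and singly. A region of 449 bp stood at 55591801 to 55592249, 36.1 kb beyond the pair. It was followed by regions of 149 bp at 55605651 to 55605799 and of 199 bp at 55622051 to 55622249, after 13.7 and 16.4 kb. The region of 149 bp was the narrowest of the 17, and 99.8% of the list was at least as wide.

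The list numbers of the Klf4 regions were 1054, 2371, 1541, 1106, 5307 and 4323 in order of position. The 4 regions of at least 449 bp thus all stood among the first 2923 of the list and the 2 narrow ones did not. The first 2923 hold 50% of all regions by construction. How many regions of such widths stood there over the whole list was not computed, so this split cannot be called particular to Klf4. The widest Klf4 region was not early for its width, as it was the 16th by list number of the 19 regions of 1099 bp. The Klf4 region of 849 bp was the 34th of 41. None of the Klf4 regions stood among the first 584, which held 583 of the 5830 regions outside the 4 windows.

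Long stretches without a region flanked the Klf4 group. The next region below it lay 528 kb from its first member and the next above it 584 kb from its last. Widening the window by 100 kb on either side added 0 regions, and widening it by 1 Mb added 5. Of 5827 distances between neighbours in the list, 21.8% were at least as long as the lower of these stretches and 20.2% as long as the upper. With steps of up to 50 kb the 6 regions formed a single run, and the list held 73 runs of at least 6 (2.07% of runs and lone regions).

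**Figure D2:**
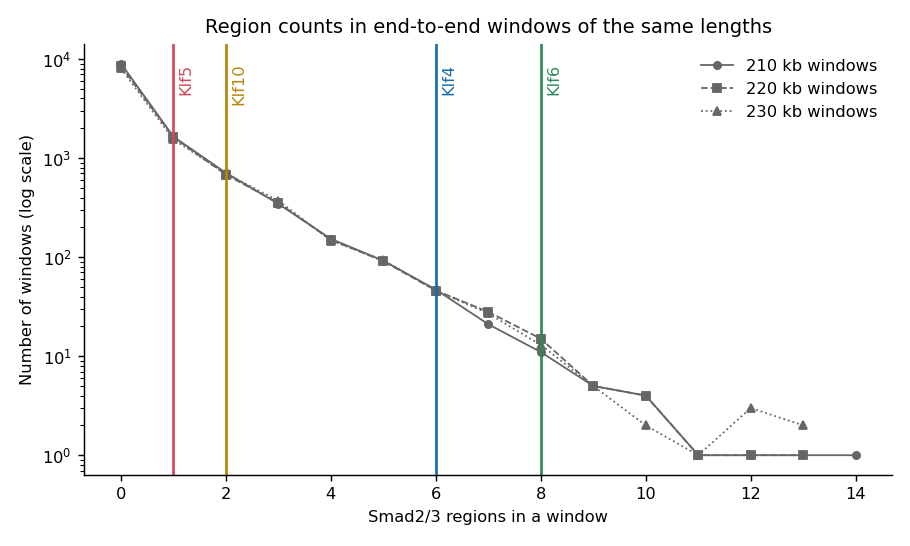
Number of end-to-end windows (vertical axis, log scale) by the number of Smad2/3 regions they held (horizontal axis), for windows of 210, 220 and 230 kb over all chromosomes. Coloured lines mark the KLF windows: Klf5 and Klf10, with 1 and 2 regions, lie where windows are common, and Klf4 and Klf6, with 6 and 8, lie in the tail.

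Klf10 had 2 regions, which formed the closest pair of the 4 loci. They lay on chromosome 15 at 38229351 to 38229899 and 38230351 to 38230899, both 549 bp wide, with centres 1 kb and edges 451 bp apart, 4.6 and 5.6 kb above the window's midpoint. In the list, 268 of 5827 neighbouring pairs (4.6%) were as close or closer. The window's density was 9.52 regions per Mb, against 3.04 per Mb on chromosome 15. Of the end-to-end windows of 210 kb, 11.5% held at least 2 regions, so a count of 2 is not rare in this list. If such close regions are counted once, the locus holds 1.

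The Klf10 regions, equal in width and adjacent, stood far apart in the list. How far apart such pairs usually stand was not computed. The upper region was number 1687 and the lower was number 5733. Among the 278 regions of 549 bp, the upper was the 144th by list number and the lower the 277th. Of the last 584 regions of the list, 5.31% (31 regions) were at least as wide as the lower one.

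The count at Klf10 depended on the bounds of the window. With the bounds moved outwards by 100 kb it rose from 2 to 8, since 6 regions lay between 31.4 and 73.5 kb beyond the upper bound. Of these, 5 formed a run of 21.3 kb with widths of 399 to 699 bp. Its widest region, at 38400151 to 38400849, was number 83 of the list. These 6 regions are not members, and which gene they belong to was not determined. No region lay within 100 kb below the window.

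Klf5 had 1 region, at 99695001 to 99695199 of chromosome 14, at -9.9 kb from the window's midpoint. It was 199 bp wide, and 95.2% of the list was at least as wide. Its list number was 4333. Of 10997 end-to-end windows of 230 kb, 26.8% held at least 1 region, and on chromosome 14 alone 20.2% of 491 windows did. Chromosome 14 carried 190 regions, or 1.68 per Mb. The Klf5 window, with its 1 region, had 4.35 per Mb, 2.59 times that of the chromosome. Any window of 230 kb with 1 region has this density, so the ratio only restates the count.

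The Klf5 region was also the most isolated of the 17. Its nearest neighbour lay 240 kb above, and the next region below was 2776 kb away, a stretch matched or exceeded by 2.76% of the distances in the list. Of all regions, 14.5% stood at least as far from their nearest neighbour. A region missing from the list cannot be read as unbound, since no depth is known, and this holds for Klf5 as for the stretches around Klf4.

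**Figure D3:**
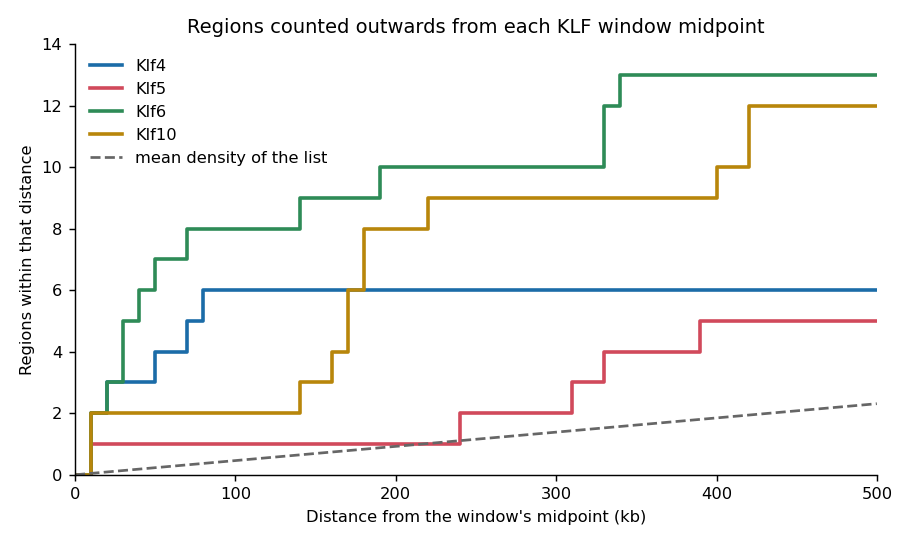
Number of Smad2/3 regions (vertical axis) within a given distance in kb of each KLF window's midpoint (horizontal axis), counted in steps of 10 kb, with the mean density of the list (2.31 per Mb) as a dashed line. Klf4 reaches 6 within 80 kb and stays there to 500 kb, Klf6 reaches 8 within 70 kb and 13 at 500 kb, and Klf10 rises from 2 to 8 between 130 and 180 kb. Klf5 stays at 1 to 230 kb and reaches 5 within 390 kb.

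The members closest to a bound were the last Klf4 region, 27.9 kb inside the upper bound, and the first Klf6 region, 43.3 kb inside the lower bound. The regions closest outside a bound were a region of 499 bp (number 1030), 29 kb above the Klf6 window, and a region of 349 bp (number 3051), 31.4 kb above the Klf10 window. Beyond the Klf5 window the nearest lay at 115 kb, with a width of 199 bp and the number 4751.

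Over the 17 KLF regions the widths ran from 149 to 1099 bp, with a median of 499 bp and an interquartile range of 249 to 699 bp. The other 5830 regions had a median of 349 bp and an interquartile range of 249 to 499 bp. At least 499 bp, the upper quartile of the list, was reached by 9 of the 17 (52.9%) and by 27.3% of the rest, while at most 249 bp, its lower quartile, was measured for 6 of the 17 (35.3%) and for 31.5% of the rest. Relative to the median width of the list, 11 of the 17 were at or above it, beside 55.2% of all regions. The wide regions were 3 at Klf4, 4 at Klf6 and 2 at Klf10. With 17 regions of 1 library, of which 14 came from 2 windows, this is a description of these loci.

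The list numbers of the KLF regions ran from 9 to 5733 with a median of 2371, against 2925.5 for the rest. Among the first 2923 of the list stood 10 of the 17, where the whole list has 50% by construction. A further 3 stood among the last 584, 1 each from Klf4, Klf6 and Klf10, beside 581 of the other 5830 regions. The place of each region within its width class was looked up after the values were seen. Of the 9 regions of at least 499 bp, 7 lay past the middle of the list order of their own width class, and of the 8 narrower ones, 2 did. By construction about 50% of the regions of a width class lie past its middle. With so few members, no contrast between wide and narrow KLF regions is drawn from these counts.

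**Figure D4:**
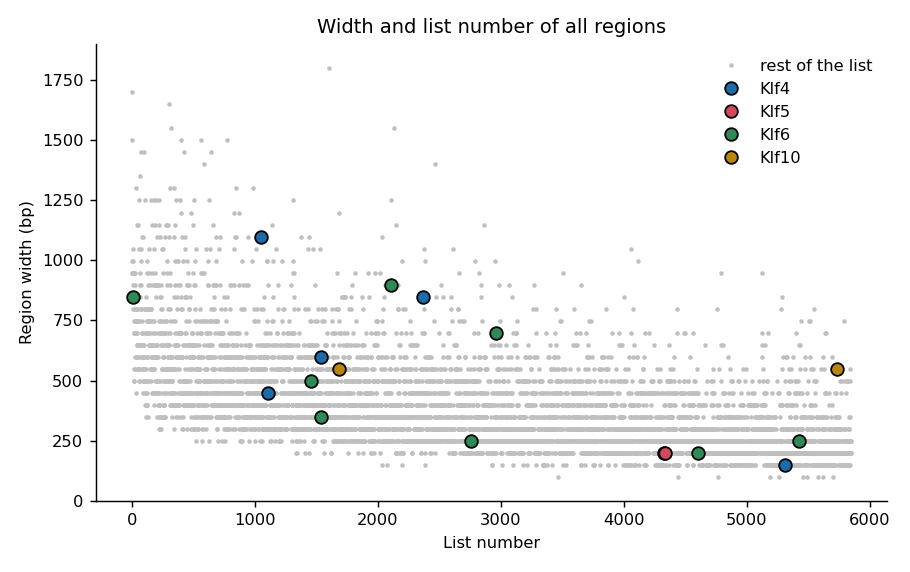
Width in bp (vertical axis) against list number (horizontal axis) for all 5847 regions, with the rest of the list in grey and the 17 KLF regions coloured by window. KLF regions reach from number 9 to number 5733, and the lower Klf10 region, 549 bp wide at number 5733, lies near the upper edge of the grey points in the last part of the list.

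The order of the list followed position in part, which bears on how finely the KLF regions can be ordered by list number. Of the 5846 steps from an entry to the next, 4679 descended in chromosome name and start, and where both entries lay on the same chromosome, 97.2% of 1376 steps descended in start. The list thus fell into 1168 stretches that only descend in position, with up to 44 entries each. An order unrelated to position would also hold short stretches, so those of a few entries say little. Such steps were 71.8% of those among the first 2923 entries and 88.2% of those among the rest. Neither the quantity that orders the stretches nor the meaning of ties is stated.

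For the KLF regions these stretches were 2 to 43 entries long. The last Klf4 region (number 4323) and the Klf5 region (number 4333), both 199 bp wide, stood in the same stretch, from number 4303 to 4345, so their order in the list follows position. The Klf6 region at number 9 stood in a stretch of 2, numbers 8 and 9. The Klf10 pair was in stretches from number 1682 to 1687 and from 5725 to 5738, so the distance between its members is far larger than the length of a stretch. The same holds for the Klf6 regions of 249 bp, whose stretches ran from 2755 to 2762 and from 5404 to 5437.

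Distances to the nearest region ran from 1 kb at Klf10 to 240 kb at Klf5. A neighbour within 12500 bp was present for 11 of the 17, beside 37.1% of all regions, and the median distance to the nearest region was 8.82 kb, against 27.7 kb for the rest. Counted by locus, these were 3 of 6 at Klf4, 6 of 8 at Klf6, both at Klf10 and 0 of 1 at Klf5. Only 4 of the 17, the Klf4 and Klf10 pairs, had a neighbour within 5 kb, beside 25.2% of all regions. Neighbours share their distance, and windows with many regions weigh most in these counts, so they are not independent values. At Klf4 and Klf6, short distances also follow in part from the number of regions per window. The contrasts with the rest and with all regions therefore partly restate the counts per window.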

How the data were processed

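Values were computed from the authors' deposited list of Smad2/3 regions of 1 ChIP library in mm9. The second of the 2 samples, the input, was not used in any value. Bowtie2 and the build mm9 come from the submitters' processing notes. How peaks were called, and whether the input was used, is not given in the sources used here. A score of 1000 stood in every deposited line, so it ranked nothing. Starts lay on a 50 bp grid. Positions are printed counted from 1, and width is end minus start as deposited.

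Window bounds followed the given rule. Regions were neighbours when their centres lay within 12500 bp. Background windows ran end to end from the first region centre of each chromosome, KLF loci included. All promoter motifs were searched on both strands, with overlapping matches counted. The genes, windows and measures were chosen with earlier results of these data known, and every region whose centre lay in a window was named. As regions of 1 library are no replicates, p-values were not computed. Counts, distances and runs were tested on simulated data. Python 3.11.15, NumPy 2.4.6, SciPy 1.17.1 and Matplotlib 3.10.9 were used. Alternatives covered the bounds, overlap, width, list order, merging, neighbour distance and background windows.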

Additional observations from a re-analysis of the deposited data

How the results depend on the processing

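Counting any overlap changed none of the 4 counts, and moving the bounds 50 kb inwards left 4 at Klf4, 1 at Klf5, 7 at Klf6 and 2 at Klf10. With bounds 100 kb outwards, Klf4 had 6, Klf5 1, Klf6 10 and Klf10 8 regions. Among regions at or above the median width Klf4 had 4, Klf5 0, Klf6 5 and Klf10 2, and in the first 2923 of the list Klf4 had 4, Klf5 0, Klf6 5 and Klf10 1, all by construction from fewer regions. Merging within 2 kb left 5 at Klf4, 1 at Klf5, 8 at Klf6 and 1 at Klf10. A neighbour within 5 kb was present for 4 of the 17 regions, against 11 within 12500 bp. The share of windows with at least as many regions became 0.93% for Klf4, 0.0696% for Klf6 and 25.2% for Klf10 with merging. On the own chromosome it was 20.16% for Klf5, 0.567% for Klf6 and 14.95% for Klf10, and on autosomes 28.14% for Klf5 and 12.16% for Klf10. In the first 2923 regions it was 100% for Klf5, which then had 0 regions, 0.461% for Klf6 and 15.54% for Klf10. The causes were not tested. The median width lay between 449 and 549 bp and the median list number between 2029 and 2761 under all 6 alternatives run for each. No paired analysis was possible because only 1 library was precipitated, and no replicate could be left out. Depth is unknown, so how many further regions a deeper library would hold is not known.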
